A study of Mus musculus with 3 samples.

Results

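The Rab genes of 3 mouse dendritic cell preparations were taken as every gene whose symbol is Rab followed by a number from 1 to 43 and at most 1 letter, and whose probe was detected on at least 1 array. Detected means a detection p-value under 0.01, as deposited for each probe. The platform held probes for 56 such genes. Of these, 38 were detected, among 8055 named genes detected in all. The other 18 were not well above background on any array.

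Dendritic cells were grown from marrow of DBA mice 6 weeks old, over 8 days in medium holding 20 ng/ml of GM-CSF and 2 ng/ml of interleukin-4. The immature culture (imDC) has no stimulus named in its labels. The semi-mature or tolerogenic cells (tDC) had received type II collagen (50 µg/ml) together with TNF-alpha (10 ng/ml) for 4 h. The fully mature cells (mDC) had received the same dose of collagen together with lipopolysaccharide (1 µg/ml) for 24 h. Stimulus and hours differ together between tDC and mDC and cannot be told apart, and how many mice gave each culture is not stated in the labels. Each preparation was read on 1 Illumina MouseRef-8 v2 bead array, so every value below is a single measurement and no difference has a test, p-value or standard error.

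Rab proteins are small GTPases that mark membrane compartments. Exchange factors load them with GTP, GTPase-activating proteins switch them off, and in the active state they recruit effectors that move, tether and fuse vesicles. In dendritic cells this traffic carries antigen from the cell surface through endosomes and phagosomes to lysosomes, and returns MHC molecules and receptors to the surface.

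The promoter windows of 3 members that the results turn on are given here. Rab15 had the largest difference of all members, Rab19 was lower on both stimulated arrays, and Rab10 was 1 of 2 members at least 1.5-fold higher in mDC than in imDC. Each window runs 5′ to 3′ on the gene's own strand, from 250 bases before to 50 bases after the annotated start, in the RefSeq reference (GRCm38.p6), not in the DBA strain. Capitals mark the letters GGGCGG (GC box), TTCNNNGAA (interferon-gamma activated site) or the interferon-stimulated response element on either strand. The windows are chr12:76822475-76822774 (minus strand) for Rab15, the most upstream of 4 listed for that gene, chr6:39381103-39381402 (plus strand) for Rab19 and chr12:3309920-3310219 (minus strand) for Rab10.
Rab15: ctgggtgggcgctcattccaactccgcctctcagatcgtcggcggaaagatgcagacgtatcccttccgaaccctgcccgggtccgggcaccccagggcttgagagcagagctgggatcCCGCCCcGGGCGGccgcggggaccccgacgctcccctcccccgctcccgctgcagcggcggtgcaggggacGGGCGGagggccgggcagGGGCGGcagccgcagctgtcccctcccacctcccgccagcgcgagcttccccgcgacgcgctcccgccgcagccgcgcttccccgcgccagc
Rab19: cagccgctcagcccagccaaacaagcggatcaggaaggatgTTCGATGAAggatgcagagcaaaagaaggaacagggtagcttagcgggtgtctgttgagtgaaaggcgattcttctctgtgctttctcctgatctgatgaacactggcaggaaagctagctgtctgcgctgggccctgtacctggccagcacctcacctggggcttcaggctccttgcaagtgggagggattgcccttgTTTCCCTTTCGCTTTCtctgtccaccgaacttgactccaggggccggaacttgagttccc
Rab10: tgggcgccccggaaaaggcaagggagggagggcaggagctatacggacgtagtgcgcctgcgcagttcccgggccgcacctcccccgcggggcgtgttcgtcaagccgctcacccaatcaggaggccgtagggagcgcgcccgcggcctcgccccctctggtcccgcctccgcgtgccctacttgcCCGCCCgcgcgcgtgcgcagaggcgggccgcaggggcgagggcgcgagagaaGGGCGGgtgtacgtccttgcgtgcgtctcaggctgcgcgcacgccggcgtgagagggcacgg
The Rab15 window held 4 GC boxes, the first pair 1 base apart, and the Rab10 window held 2. The Rab19 window held none, but had 2 overlapping matches of the interferon-stimulated response element at the annotated start and 1 interferon-gamma activated site. A match is a run of letters, not a measured binding site.

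Of the 38 members, 34 had at least 1 window in the RefSeq table, 45 windows in all. GC boxes were present in 29 of these 45 (64.4%), near the 61.8% of 8583 windows of all detected genes, and above the 35.7% of all 32851 windows of the table. The interferon-stimulated response element was present in 1 of 45 (2.22%), that of Rab19, against 3.23% of the windows of detected genes and 3.44% of all windows. The interferon-gamma activated site was present in 4 of 45 (8.89%) against 7.18% of detected and 8.30% of all. A further 4 motifs were searched on both strands. The NF-kB consensus (kappa-B) was present in 3 of 45 windows (6.67%), in 10.5% of those of detected genes and in 8.46% of all. GAGGAAGT (bound by PU.1) was present in 1 (2.22%), 3.39% and 3.20%, and TGANTCA (AP-1) in 3 (6.67%), 5.50% and 7.81%. CACGTG (E-box) was present in 4 (8.89%), 10.1% and 7.15%. The median GC content of the Rab windows was 61.3%, close to the 60.3% of detected genes.

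The signals ran from 63.8 to 65567 intensity units, with array medians of 132 for imDC, 125 for tDC and 125 for mDC, and from 10673 to 11006 of 25697 probes were detected per array. Of the 38 members, 37 were detected on all 3 arrays. The exception was Rab39b, not detected in imDC. Rab39b was also the member nearest the detection threshold, with a lowest detection p of 0.0050. Just outside it were Rab20, a Rab of phagosomes, at 0.013 and Rab4a, a Rab of fast recycling, at 0.016. The remaining genes not well above background were Rab2b, Rab3b, Rab3c, Rab6b, Rab9b, Rab17, Rab23, Rab25, Rab27b, Rab30, Rab33a, Rab36, Rab37, Rab39, Rab40b and Rab42.

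Most Rab genes had nearly the same level on the 3 arrays. Levels are log2 of normalized intensity, and differences are the first-named array minus the second. The median difference of the 38 members was -0.04 for tDC against imDC, where that of all 8055 genes was 0.00. It was -0.08 for mDC against imDC, beside -0.02 for all genes, and 0.08 for mDC against tDC, beside -0.02. The members' interquartile range lay between -0.27 and 0.18 in the first comparison and between -0.28 and 0.17 in the second. For all genes the corresponding ranges were -0.26 to 0.22 and -0.35 to 0.29. The first 2 comparisons share the imDC array, so their values are given side by side and not as separate evidence.

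**Figure D1:**
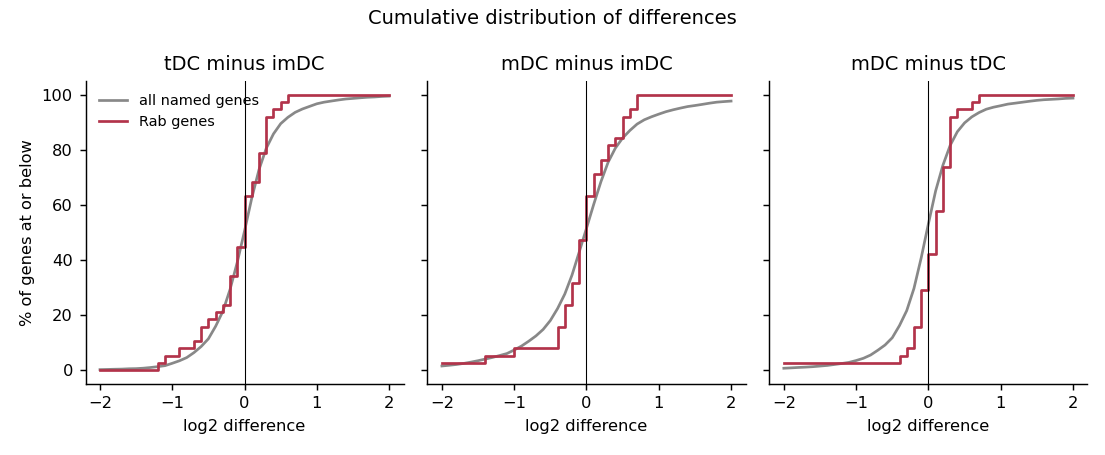
Cumulative share of genes (vertical axis, percent) at or below each log2 difference (horizontal axis) for the 38 Rab genes (red steps) and all 8055 named genes (grey), in the 3 comparisons of single arrays. At 0 the Rab share is 63.2% in both comparisons with imDC, beside 50.5% (tDC) and 51.5% (mDC) of all genes. In mDC minus tDC it is 42.1% beside 53.2%. The Rab curves reach 100% before a difference of 1 on the right in all 3 panels.

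At 2-fold, 2 of 38 members were lower in tDC than in imDC (Rab7b and Rab19) and 0 were higher. Over all genes 1.97% were lower and 2.82% higher by that rule. In mDC against imDC 3 members were lower (Rab15, Rab19 and Rab7b), with 5.90% of all genes lower, and 0 were higher, with 6.10% of all genes higher. In mDC against tDC only Rab15 was lower and 0 members were higher, beside 2.72% and 3.34% of all genes. Each member is 2.63% of the 38, so a single gene decides much of these shares.

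At 1.5-fold, 6 members (15.8%) were lower in tDC than in imDC and 0 were higher, where all genes had 7.62% lower and 7.45% higher. In mDC against imDC 3 members (7.89%) were lower and 2 (5.26%) higher, below the 13.2% and 12.3% of all genes. In mDC against tDC 1 member was lower and 1 higher, where all genes had 7.95% lower and 7.37% higher. In all, 9 members reached 1.5-fold in some comparison and 29 did not, among them Rab39b, whose differences from imDC are lower bounds. The same count was not made over all genes, so it only sorts the members for the text below.

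**Figure D2:**
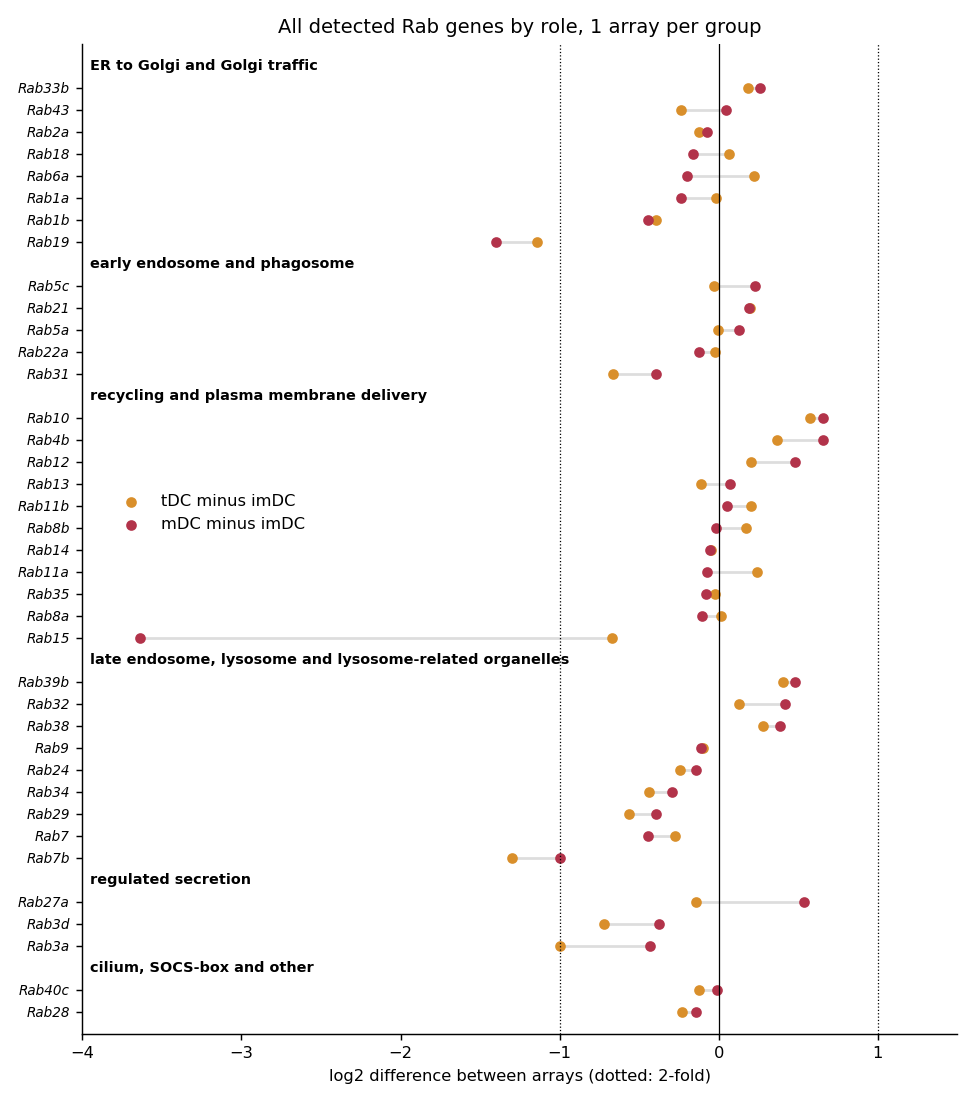
Log2 difference from imDC (horizontal axis) of each of the 38 detected Rab genes, in tDC (orange) and mDC (red), grouped by role. Each point is a difference of 2 single arrays and dotted lines mark 2-fold. Rab15 in mDC, at -3.64, stands far to the left, and 0 genes pass the right-hand dotted line.

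Among the 11 detected Rab genes of recycling and delivery to the plasma membrane, Rab15 had the largest difference and most others differed little. Rab15, which acts on early and recycling endosomes, had log2 levels of 12.82 in imDC, 12.15 in tDC and 9.18 in mDC. In intensity units before normalization its signals were 7388, 4725 and 628. It was thus highest in imDC, 1.59-fold lower in tDC and 12.4-fold lower in mDC, where it remained detected. Between mDC and tDC the difference was 7.81-fold. It was measured by 1 probe. Over the 7 alternative settings the log2 difference of mDC from imDC stayed between -3.65 and -3.46. The settings on detection and on the mean of probes could not move it, as its 1 probe was detected on every array.

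Rab10 and Rab4b were the only members at least 1.5-fold higher in mDC than in imDC. Rab10, which in mouse macrophages helps to bring Toll-like receptor 4 to the surface, had log2 levels of 8.64 in imDC, 9.22 in tDC and 9.30 in mDC. Both stimulated arrays were above imDC, by 1.49-fold in tDC and 1.58-fold in mDC. A second Rab10 probe gave differences of 0.46 and 1.23, so the probes had the same direction and the second put mDC above tDC by 0.76, the first by 0.08. Rab4b, a Rab of fast recycling from early endosomes, had log2 levels of 8.31, 8.68 and 8.97 in imDC, tDC and mDC. It was lowest in imDC and highest in mDC, 1.58-fold above imDC. Without background correction the log2 differences of these genes in mDC fell under 1.5-fold, as they did with median scaling and in the authors' processed values. By the mean of its probes the Rab10 difference in mDC was instead larger, 0.94, and its second probe alone was 2.34-fold higher.

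The other 8 members of this group stayed within 1.5-fold. Rab12, which takes part in degradation of the transferrin receptor, differed from imDC by 0.20 in tDC and 0.48 in mDC. Rab11a, the Rab of the slow recycling compartment, differed by 0.24 and -0.08, and its relative Rab11b by 0.20 and 0.05. Rab8b differed by 0.17 and -0.02, and Rab8a, which directs vesicles from the Golgi to the surface, by 0.02 and -0.11. Rab14, Rab35 and Rab13 lay between -0.11 and 0.07 in both comparisons. The median of the 11 was 0.17 in tDC and -0.02 in mDC.

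**Figure D3:**
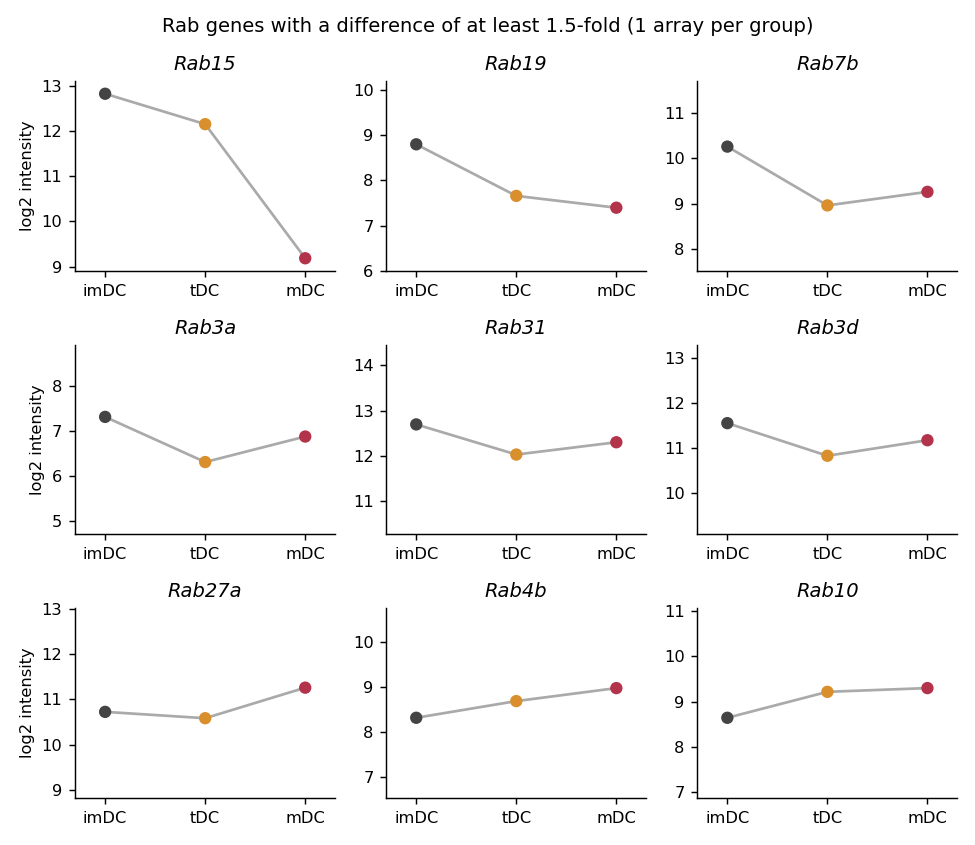
Log2 intensity (vertical axis, the same span in every panel) on the imDC, tDC and mDC arrays (horizontal axis) for the 9 Rab genes that reached 1.5-fold in some comparison. Each point is 1 array. The drop of Rab15 from 12.15 in tDC to 9.18 in mDC is the steepest step, whereas Rab7b, Rab3a, Rab3d, Rab31 and Rab27a are lowest in tDC.

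Rab genes of late endosomes, lysosomes and related organelles went both ways. Rab7b, which in mouse macrophages sends Toll-like receptors to lysosomes, had log2 levels of 10.26 in imDC, 8.96 in tDC and 9.26 in mDC, from signals of 1373, 577 and 660 units. Both stimulated arrays were below imDC, by 2.46-fold in tDC and 2.00-fold in mDC, the latter right at the threshold. In mDC the difference fell short of 2-fold without background correction, with an offset of 50 and in the authors' processed values (log2 differences of -0.91, -0.962 and -0.92). Rab7, which drives fusion of late endosomes with lysosomes, had log2 levels of 13.19, 12.92 and 12.75 in imDC, tDC and mDC. It was lower by 0.28 and 0.44 on the log2 scale, and its 3 probes had the same direction in both comparisons, from -0.34 to -0.14 in tDC and from -0.52 to -0.44 in mDC.

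Rab29, a Rab of the trans-Golgi network and lysosome, lies on chromosome 1 near Rab7b with 3 protein-coding genes between them in the RefSeq gene table. No other pair of members lay within 5 coding genes of each other. Rab29 had log2 levels of 11.11, 10.55 and 10.72, lowest in tDC as was Rab7b, with differences of -0.56 and -0.39. Rab34, which positions lysosomes and acts on phagosomes, differed by -0.44 in tDC and -0.30 in mDC. A second Rab34 probe, not detected in tDC, was at least 1.62-fold lower there and gave -0.62 in mDC.

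Rab32 and Rab38 were higher on both stimulated arrays by less than 1.5-fold. Rab32 and Rab38, a related pair that builds melanosomes and other lysosome-related organelles, differed from imDC by 0.13 and 0.28 in tDC and by 0.42 and 0.39 in mDC. Both detected Rab38 probes were higher, the second by 0.44 and 0.53. Rab39b had levels of 5.97, 6.37 and 6.45, near the background throughout. As it was not detected in imDC, it was at least 1.21-fold higher in tDC and at least 1.28-fold higher in mDC. Rab24, linked to autophagy, and Rab9, which returns mannose 6-phosphate receptors to the Golgi, differed by -0.24 to -0.10 in both comparisons. A second Rab9 probe, detected only in tDC, went the other way and was at least 1.32-fold higher there than in imDC. Over the 9 genes the median was -0.24 in tDC and -0.14 in mDC.

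Among early endosome and phagosome genes, Rab31 was lower and the rest were level. Rab31, which carries cargo between the trans-Golgi network and endosomes, had log2 levels of 12.69 in imDC, 12.03 in tDC and 12.30 in mDC. The lowest was tDC, 1.59-fold below imDC, and mDC was 1.31-fold below. Rab5a and Rab5c, which govern fusion of early endosomes, differed from imDC by 0.00 and -0.03 in tDC and by 0.13 and 0.23 in mDC. Rab21, an endosomal Rab that binds integrins, differed by 0.20 and 0.19. Rab22a, which acts in recycling of MHC class I, differed by -0.02 and -0.13.

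Of the 3 detected Rab genes of regulated secretion, Rab3a and Rab3d were at least 1.5-fold lower in tDC than in imDC, and Rab27a was at least 1.5-fold higher in mDC than in tDC. Rab3a, best known from synaptic vesicles, had log2 levels of 7.31, 6.31 and 6.88 in imDC, tDC and mDC. The tDC array was 2.00-fold below imDC, just short of the threshold, and its signals there (258 units in imDC and 161 in tDC) were dim. Rab3d, a Rab of secretory granules in exocrine and mast cells, had levels of 11.56, 10.83 and 11.18, and was 1.65-fold lower in tDC and 1.30-fold lower in mDC. Rab27a, which docks lysosome-related granules and in mouse dendritic cells brings NADPH oxidase to phagosomes, had levels of 10.72, 10.58 and 11.26. It was highest in mDC, by 1.60-fold over tDC and 1.45-fold over imDC. Rab27b was not well above background, with a lowest detection p of 0.19 over its 3 probes.

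Of the 8 detected genes of traffic from the endoplasmic reticulum to the Golgi and within the Golgi, only Rab19 reached 1.5-fold. Rab19, a little-studied Rab placed at the Golgi, had log2 levels of 8.80 in imDC, 7.66 in tDC and 7.39 in mDC. Its signals were 566, 280 and 240 units. Both stimulated arrays were below imDC, by 2.20-fold in tDC and 2.64-fold in mDC. A second probe, not detected in tDC or mDC, was at least 2.15-fold and at least 2.08-fold lower there than in imDC. Without background correction the first difference was -0.89, under 2-fold.

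The rest of the Golgi group differed little. Rab1a and Rab2a, which act between the endoplasmic reticulum and the Golgi, differed from imDC by -0.02 and -0.13 in tDC and by -0.24 and -0.07 in mDC. Rab1b gave -0.40 and -0.45 by its brightest probe and 0.32 and 0.27 by the other, so its direction is not settled. Rab6a, of retrograde Golgi traffic, was higher by 0.22 in tDC and differed by -0.20 in mDC, with the lowest level in mDC. Rab43, which in mouse classical dendritic cells is needed for cross-presentation, differed by -0.24 and 0.05. Rab33b differed by 0.19 and 0.26 and Rab18, a Rab of lipid droplets, by 0.07 and -0.16. Outside these groups, Rab28 of cilia differed by -0.23 and -0.14, and Rab40c, which carries a SOCS box and joins a ubiquitin ligase, by -0.12 and -0.01.

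Within these arrays the agreement of probes for the same gene was the only check on error, and it says nothing of how cultures vary. Of the 38 members 15 had several detected probes. For 12 of them at least 2 probes were detected on both tDC and imDC, and for 12 on both mDC and imDC. Over those probes the median disagreement was 0.11 on the log2 scale in tDC against imDC and 0.13 in mDC against imDC, where the medians over 1846 and 1814 named genes were 0.16 and 0.18. The probes had the same sign for 7 of 12 members in the first comparison and 10 of 12 in the second. Over all named genes they did for 1383 of 1846 and 1417 of 1814, a larger share than the members' in the first comparison. The members whose probes differed in sign were Rab1b, Rab5a, Rab6a, Rab8a and Rab22a in tDC, and Rab1b and Rab22a in mDC. Rab15, Rab7b, Rab3a, Rab3d, Rab31, Rab27a and Rab4b rest on 1 detected probe each. Whether probes of close relatives such as Rab8a and Rab8b bind each other's transcripts was not tested.

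**Figure D4:**
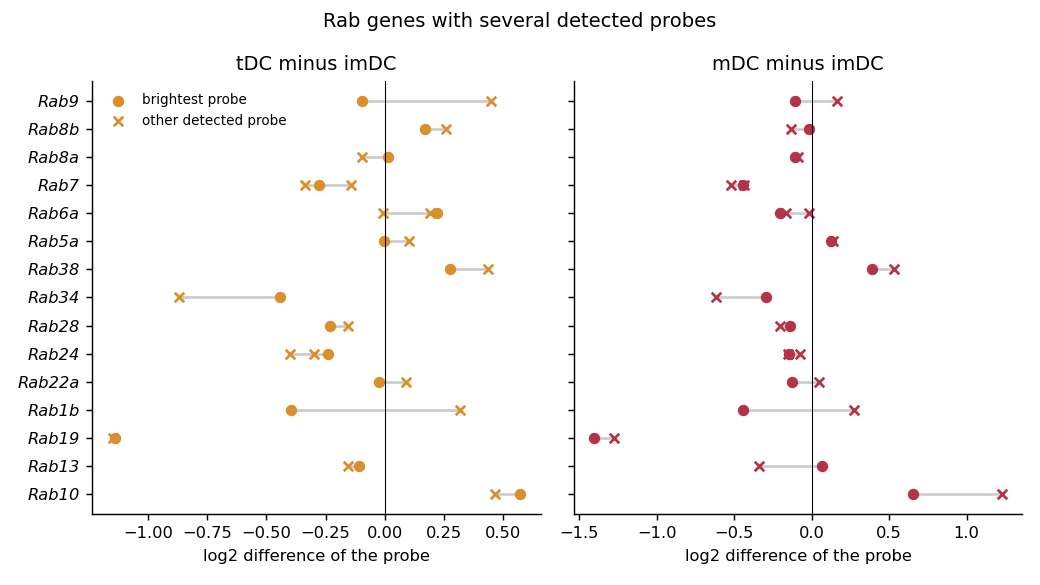
Log2 difference from imDC (horizontal axis) given by each probe detected on at least 1 array, for the 15 Rab genes with several such probes (vertical axis), in tDC (left) and mDC (right). Circles are the brightest probe, which stands for the gene, and crosses the others. The Rab1b probes lie on both sides of 0, while both Rab19 probes lie left of -1, the second plotted at measured values that were not well above background in tDC or mDC.

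The partners of Rab proteins were compared in the same way. Over 5 lists with 99 detected genes of 123 on the platform, the median difference was -0.01 in tDC and 0.05 in mDC. At 2-fold, 0 of the 99 were higher and 2 lower in tDC, and 1 was higher and 4 lower in mDC. These are 0% and 2.02% of the partners in tDC, beside 2.82% and 1.97% of all genes, and 1.01% and 4.04% in mDC, beside 6.10% and 5.90%. Among 31 exchange factors, 0 were higher and 1 lower in tDC, and 1 higher and 2 lower in mDC. Rab3il1, an exchange factor first described for Rab3a and also active on Rab8, had log2 levels of 9.04 in imDC and 8.17 in tDC and was not well above background in mDC. It was 1.82-fold lower in tDC and at least 6.86-fold lower in mDC than in imDC. The bound sets imDC against the lowest value of any detected probe on the mDC array.

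Dennd2a, an exchange factor of the DENN family, had levels of 9.12, 8.03 and 7.46 and was 2.12-fold lower in tDC and 3.16-fold lower in mDC. Mon1b, part of the complex that loads Rab7, had levels of 8.98, 9.88 and 10.21. It was 1.87-fold higher in tDC and 2.34-fold higher in mDC, whereas Rab7 itself was lower on both arrays. Mon1a differed from imDC by 0.08 and 0.50 on the log2 scale, and Ccz1, of the same complex, by -0.21 and 0.02. Among 29 effectors, 0 were higher and 1 lower in tDC, and 0 higher and 2 lower in mDC. Mical1, a Rab-binding oxidase of actin, was 2.04-fold and 2.87-fold lower than in imDC, with levels of 10.92, 9.89 and 9.39. Rab11fip5, an effector of Rab11, had levels of 11.10, 10.28 and 10.05 and was 1.76-fold and 2.06-fold lower.

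None of 24 GTPase-activating proteins, 9 genes of prenylation and membrane cycling and 6 related GTPases differed by 2-fold in any comparison. Over all genes from 1.97% to 6.10% did so per direction and comparison, so 0 in lists this short says little. The gene of these lists nearest to 2-fold was Tbc1d10a, a GTPase-activating protein for Rab27a and Rab35, at 1.97-fold higher in tDC. The medians in tDC and mDC were 0.11 and 0.12 for the GTPase-activating proteins and -0.01 and -0.02 for prenylation and cycling. They were -0.26 and -0.45 for the related GTPases, where 4 of 6 were below 0 in each comparison, beside 50.4% and 51.4% of all genes.

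**Figure D5:**
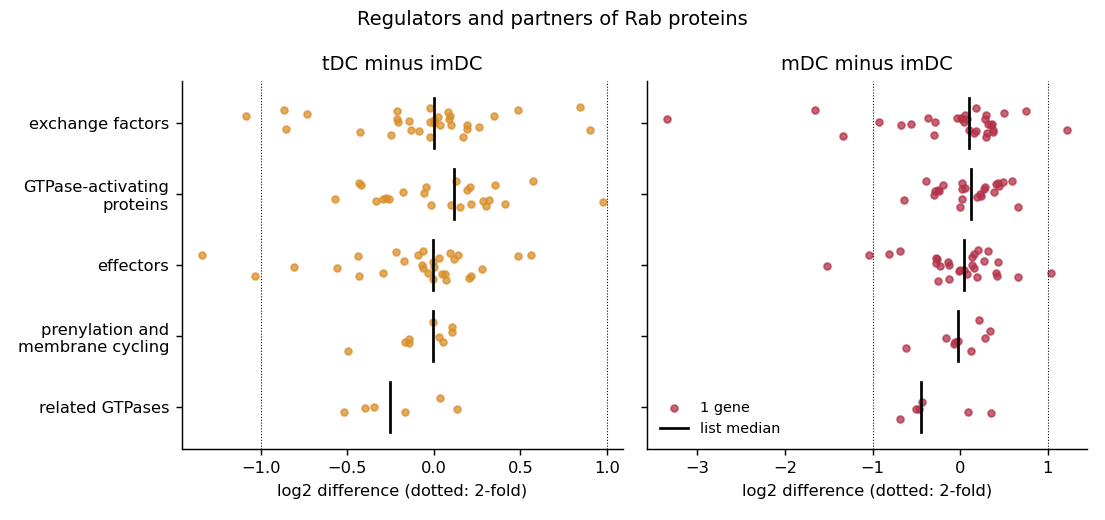
Log2 difference from imDC (horizontal axis) of each detected partner gene of Rab proteins (points) in 5 lists (vertical axis), in tDC (left) and mDC (right), with the list median as a black bar and 2-fold as dotted lines. The horizontal scales differ between panels. The leftmost point in mDC is Rab3il1, plotted at its measured -3.35 although it was not well above background there.

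Markers of other cells in such cultures also differed between the arrays. In bulk RNA, fewer cells of a type and less RNA per cell cannot be told apart. Of 12 dendritic cell markers 11 were detected in imDC and 10 each in tDC and mDC. Their summed normalized intensity was 159790, 160291 and 148831 in imDC, tDC and mDC. Flt3 was not well above background on any array, nor Cd209a in tDC and mDC. The median log2 difference of the 11 was 0.09 in tDC and 0.00 in mDC, each against imDC. Itgax, which encodes CD11c, had log2 levels of 9.93, 8.74 and 7.98, and was 2.29-fold lower in tDC and 3.88-fold lower in mDC. The medians here are of measured values, some of them not well above background. Neutrophil markers, 12 of 12 detected on each array, summed to 66498, 124289 and 143918. Their median difference from imDC was 0.94 in tDC and 0.30 in mDC. Between mDC and tDC it was -0.36, with 9 of 12 lower in mDC, beside 53.0% of all genes. The higher sum in mDC followed Lcn2, a granule protein and the brightest there, which was higher by 1.31 on the log2 scale. Of 8 mast cell and basophil markers, 5 were detected in imDC, 5 in tDC and 6 in mDC. Ms4a2 was detected only in mDC, and Mcpt4 and Tpsb2 on no array. The 6 summed to 3429, 11130 and 31664, and their medians were 0.93 and 1.51. The sums followed Hdc, the brightest in tDC and mDC, which was above imDC by 2.57 and 4.44 on the log2 scale. Of 8 macrophage and monocyte markers, 7 were detected in imDC, 6 in tDC and 5 in mDC, and C1qa on no array. The 7 summed to 19815, 16916 and 29181. Their medians were nevertheless -0.90 in tDC and -2.32 in mDC. Below 0 were 5 of 7 and 4 of 7, where all genes had 50.4% and 51.4%. Mrc1, the mannose receptor, had log2 levels of 13.77, 12.78 and 8.21, whereas Adgre1 (F4/80) and Ly6c1 were higher in mDC than in imDC by 3.00 and 2.93. Of 8 T and NK cell markers, 2 were detected in imDC, 2 in tDC and 4 in mDC. Cd3e and Cd3g were detected only in mDC, and Cd8a, Klrb1c, Ncr1 and Cd2 on no array. The 4 summed to 8062, 6041 and 5286. Their medians of measured values were 0.68 and 0.85, with 3 of 4 above 0. For Cd3e and Cd3g both the tDC and the imDC value were below detection, and mDC was at least 1.18-fold above imDC. The sums followed the brightest, Il7r (the interleukin-7 receptor), which was lower by 0.46 in tDC and 0.66 in mDC, whereas Cd3d, of the T cell receptor complex, was higher by 0.90 and 0.53. Of 5 B and plasma cell markers, Cd79b was detected on every array and Cd79a only in mDC, with Ms4a1, Pax5 and Jchain on none. The 2 summed to 165, 378 and 723. The part of these shifts in the Rab differences was not tested.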

How the data were processed

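Expression was measured on 1 bead array for each of imDC, tDC and mDC, grouped by the cell type in the labels. Per the file headers, the deposited table gave an average signal, a linear intensity, and a detection p-value for each probe. The submitters' processing notes name GenomeStudio 2011.1. A second deposited table held the authors' own log2 intensities, quantile normalized as the data show: their 3 sorted columns differed by at most 6.88e-04, with a median of 6.98. The signals were background corrected with normexp from the detection p-values (offset 16), quantile normalized and expressed as log2 by the neqc function of limma (version 3.58.1, in R 4.3.3).

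Of 25697 probes, 11556 had a detection p under 0.01 on 1 or more arrays and were kept. Of these, 688 are unnamed here. Symbols came from the platform annotation and were updated through Entrez IDs against a RefSeq table of GRCm38.p6. That table held 23962 of 23978 named probes. The brightest kept probe stood for a gene. Where only 1 array of a pair detected a gene, the difference is a bound: on the other array the gene took its own value or, if higher, the lowest value of any detected probe. All members were named, in full if they reached 1.5-fold in any comparison. Up to 4 partners per list were named at 2-fold. Outside that rule, Mon1a and Ccz1 were named beside Mon1b, and Tbc1d10a was named after its value was seen. Counts stand beside those over all 8055 genes, in 3 comparisons. With 1 array a group, the number of arrays limits the precision. The steps were run on simulated arrays with changes above 2-fold set in bright probes only, called at 2-fold. Dim probes, smaller changes and the 1.5-fold rule were not tested in this way. The members and lists were chosen with earlier results of these data known. Alternatives were no background correction, median scaling, an offset of 50, the authors' values, a detection p under 0.05, detection on all 3 arrays and the mean of probes.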

Additional observations from a re-analysis of the deposited data

How the results depend on the processing

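The counts and medians for the Rab genes were recomputed under 7 alternatives in 3 comparisons. Of 105 such values, 99 stayed close to those reported (counts within 1.5 times, medians within the scatter between probes) and 6 moved. The medians (-0.04, -0.08 and 0.08) were smaller than that scatter (0.11, 0.14 and 0.14), so the rule could hardly mark them as moved. A count that went from 3 to 2 or from 2 to 3 was also taken as close. The number at least 2-fold lower in tDC than in imDC went from 2 to 1 without background correction and to 1 in the authors' processed values, where Rab19 no longer reached 2-fold. The number at least 1.5-fold higher in mDC than in imDC went from 2 to 0 without background correction, to 0 with median scaling and to 0 in the authors' processed values. With a detection p under 0.05 there were 43 Rab genes, and the number at least 1.5-fold higher in tDC went from 0 to 1 by the addition of Rab20. For the 9 genes given in full, 189 differences were recomputed, and 20 moved by more than the scatter between probes. A change of sign was counted only where the reported difference was 1.5-fold or more, and none of those changed sign. Genes with 1 probe could not move under the settings on detection or the mean of probes. The difference of Rab3a in tDC ranged from -1.07 to -0.56 and that of Rab31 from -0.69 to -0.58, so both went under 1.5-fold in at least 1 setting. Rab3a, Rab34 and Rab39b lie near the background. The brightest signals were close to the top of the scanner's range. No paired analysis was possible because each group has 1 array.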

Other observations

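Rab44, a large Rab of immune cells that lies outside the number range used, had log2 levels of 8.18 in imDC, 8.82 in tDC and 7.99 in mDC. It was highest in tDC, 1.56-fold above imDC and 1.79-fold above mDC, where the arrays share the tDC value.

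SNARE proteins carry out the fusion step that follows Rab action. A list of SNAREs and their cofactors was drawn up by symbol after the Rab values were seen, and 35 of its 43 genes were detected. Their median difference from imDC was 0.00 in tDC and 0.01 in mDC. None differed by 2-fold in tDC, and 1 was higher and 0 lower in mDC, 2.86% of the list beside 6.10% of all genes higher and 5.90% lower. In tDC those shares of all genes were 2.82% and 1.97%. That gene was Vti1a, a SNARE of the trans-Golgi network and endosomes, with log2 levels of 10.43, 10.75 and 11.48 and a 2.06-fold difference in mDC. Sec22c, of the endoplasmic reticulum, had levels of 8.60, 7.87 and 7.63 and was 1.66-fold lower in tDC and 1.96-fold lower in mDC. Stx1a was 1.73-fold higher in mDC, and Stx3 and Napb were lower there by 1.59-fold each. At 1.5-fold 2 of 35 were thus higher and 3 lower in mDC, where all genes had 12.3% and 13.2%. Each of these is a difference of single arrays with no test.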
